A study of Homo sapiens with 2 samples.

Results

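Mirtrons are microRNA precursors that coincide with a short intron, and the 10 examined here are hsa-mir-877, hsa-mir-1224, hsa-mir-1225, hsa-mir-1226, hsa-mir-1227, hsa-mir-1228, hsa-mir-1229, hsa-mir-1236, hsa-mir-1237 and hsa-mir-1238, written below without the species prefix. They were chosen by name, and 9 of them were among the 1038 precursors listed with at least 1 count in either of the count tables; mir-1238 was listed in neither. Small RNA bound to Argonaute was sequenced from HEK293 T-Rex cells, a derivative of the human embryonic kidney line HEK293 built for inducible expression, that expressed FLAG-tagged AGO3 or FLAG-tagged AGO2. There was 1 AGO3 library and 1 AGO2 library, no sample without the tag is analysed here, and nothing in the labels says whether either line was a single clone. The sequence of the 3′ adapter also differs between the libraries, so adapter and protein cannot be told apart, and with 1 library each no test between the proteins was made.

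In the usual pathway, Drosha cuts a hairpin out of a primary transcript, Dicer removes its loop, and 1 strand is kept by an Argonaute protein. A mirtron avoids the Drosha cut: the splicing machinery frees the intron as a lariat, the lariat is opened by the debranching enzyme, and the linear intron folds into a hairpin that Dicer can process. A mirtron therefore starts with the GU of a 5′ splice site and ends with the AG of a 3′ splice site, and its 3′ arm lies in the pyrimidine-rich stretch that spliceosomes recognise. Among these 10, mir-1225 and mir-1228 have been described elsewhere as simtrons, hairpins of the same position whose processing does not need splicing. The route just given, with its avoidance of Drosha, may therefore not apply to them.

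RefSeq (build GRCh38.p14) held the hairpin and both mature arms of all 10 mirtrons. The hairpins of mir-877 (chr6:30584332-30584417, plus strand), mir-1226 (chr3:47849555-47849629, plus), mir-1229 (chr5:179798278-179798346, minus) and mir-1237 (chr11:64368602-64368703, plus) are printed because they show the typical form, the deepest stacks of reads and the form with an inner 5p miRNA. Capitals mark the first and the last 2 bases, where the splice sites lie.
mir-877: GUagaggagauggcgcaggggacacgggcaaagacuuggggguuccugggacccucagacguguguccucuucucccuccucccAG
mir-1226: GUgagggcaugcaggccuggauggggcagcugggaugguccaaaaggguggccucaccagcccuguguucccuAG
mir-1229: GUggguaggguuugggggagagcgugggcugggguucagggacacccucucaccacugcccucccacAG
mir-1237: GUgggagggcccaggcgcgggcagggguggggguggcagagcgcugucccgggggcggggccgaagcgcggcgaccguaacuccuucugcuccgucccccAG

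All 10 hairpins began with GU and ended with AG, which follows from the position of a mirtron. Of the 1562 human hairpins in the same table, these 10 included, 36 (2.30%) did both, while 130 began with GU and 263 ended with AG. The mirtron hairpins were 69 to 102 bases long with a median of 85.5, against a median of 80.0 over all hairpins. Their G+C share ranged from 54.9% in mir-1236 to 77.5% in mir-1237, with a median of 69.0%, against 52.1% over all hairpins. The minimum free energy of folding, computed with RNAfold, ranged from −0.61 kcal/mol per base in mir-1228 to −0.36 kcal/mol per base in mir-1236. Its median was −0.50 kcal/mol per base for the mirtrons, close to the −0.45 kcal/mol per base of all hairpins.

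Mature arms of some members are given next, among them those with the most counts and the most stack reads. The seed, bases 2 to 8 that pair with targets, is in capitals, and for mir-1227 only the 3p arm is given.
miR-877-5p: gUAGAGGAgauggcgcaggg
miR-877-3p: uCCUCUUCucccuccucccag
miR-1227-3p: cGUGCCACccuuuuccccag
miR-1228-5p: gUGGGCGGgggcaggugugug
miR-1228-3p: uCACACCUgccucgcccccc
miR-1226-5p: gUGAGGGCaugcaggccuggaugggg
miR-1226-3p: uCACCAGCccuguguucccuag
miR-1229-5p: gUGGGUAGgguuugggggagagcg
miR-1229-3p: cUCUCACCacugcccucccacag
miR-1224-5p: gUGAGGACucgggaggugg
miR-1224-3p: cCCCACCUccucucuccucag
miR-1237-5p: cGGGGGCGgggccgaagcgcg
miR-1237-3p: uCCUUCUGcuccgucccccag

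The 20 mature arms of the 10 mirtrons had 20 different seeds, so none was shared between them. Over the 2370 human mature miRNAs in the table, 2 arms shared their seed with another miRNA: miR-1237-5p with miR-4488, and miR-1238-5p with miR-4758-5p. The 5p miRNA began at the first base of the hairpin, that is at the 5′ splice site, in 8 of 10 mirtrons, and these 8 all began with G. Since the hairpins begin with GU, a 5p miRNA that starts there must begin with G. That base opened 13.1% of the 872 human miRNAs named 5p, a contrast that follows from the position. The exceptions were miR-1236-5p, which begins at base 2 with U, and miR-1237-5p, which begins at base 50 with C. The 3p miRNA ended at the last base of the hairpin in 8 of 10, and ended 2 bases earlier in mir-1228 and mir-1238.

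The arms differed sharply in composition. The C+U share of the 3p miRNA was 63.6% to 90.5%, with a median of 80.5%, against a median of 57.1% over the 789 hairpins with a named 3p arm. The 3p miRNA of mir-877 had the highest C+U share among the mirtrons and ranked 2 among these 789. On the other arm, the A+G share of the 5p miRNA was 60.9% to 81.8%, with a median of 71.4%, against 54.5% over the 798 hairpins with a named 5p arm. All 10 mirtrons lay above the median of all hairpins on both measures.

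**Figure D1:**
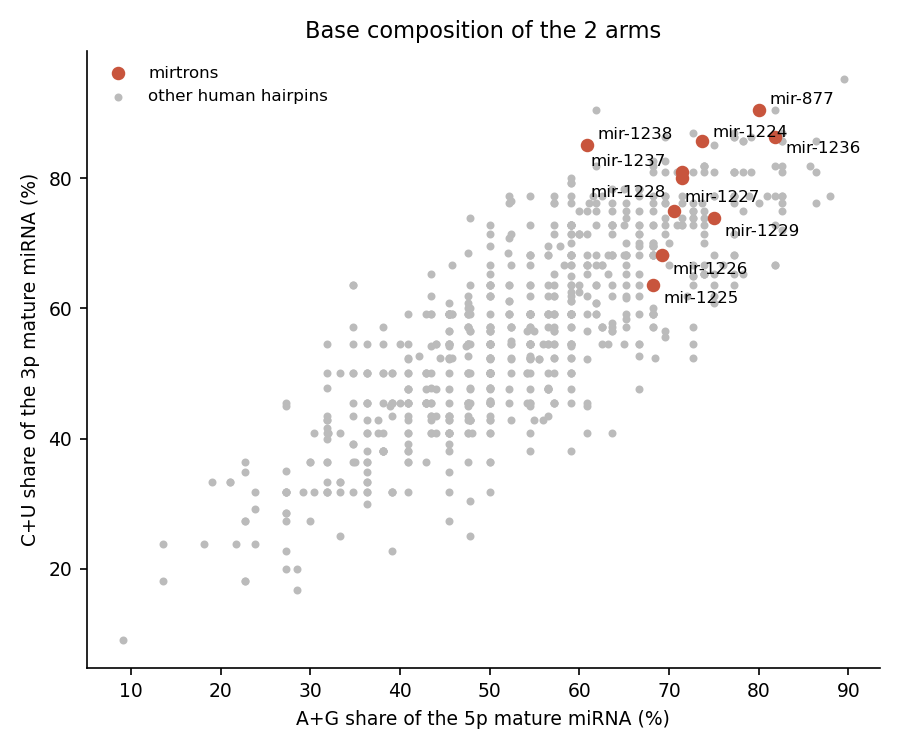
Share of A+G bases in the 5p miRNA (x axis, %) against the share of C+U bases in the 3p miRNA (y axis, %), each point 1 human hairpin in RefSeq with both arms named and red points the mirtrons. The mirtrons sit at 60.9% to 81.8% on the x axis and 63.6% to 90.5% on the y axis, in the upper right of the cloud.

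The first comparison asked how much of the small RNA in each Argonaute came from mirtrons. The 9 listed mirtrons held 3804 of 3055417 precursor counts in the AGO3 library, or 0.125% (exact Clopper-Pearson 95% interval 0.121 to 0.129), against 3655 of 3485257 in the AGO2 library, or 0.105% (0.101 to 0.108). All intervals given are of this kind and cover counting error only, since no molecular identifiers were counted and PCR copies of 1 molecule can add several reads. Counts cover both arms of a hairpin. Less of a miRNA in the cells and less of it loaded onto the protein cannot be told apart in such libraries. The cell identity was checked with lists of miRNAs: 6 of 6 miRNAs typical of HEK293, such as mir-17 and mir-10a, had 3139 to 24693 CPM, counts scaled to the same total in each library, in AGO3 and 2775 to 26213 CPM in AGO2. Of 14 precursors typical of liver, muscle, blood or pluripotent cells, 11 were listed, and none had more than 184 counts in AGO3 or 197 counts in AGO2. The highest was mir-142, of blood cells, at 60.2 CPM in AGO3 and 56.5 CPM in AGO2. In both libraries that was above the levels of mir-1229, mir-1226, mir-1236, mir-1224, mir-1237 and mir-1225 given below.

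The leading mirtron was mir-877, which lies within ABCF1, a gene for a factor in translation initiation. It had 2507 counts in AGO3, against 1922 counts in AGO2, which made up 65.9% and 52.6% of the mirtron counts of these libraries. Its level was 820.5 CPM in AGO3, where it ranked 149 among all precursors, and 551.5 CPM in AGO2, where it ranked 147. Over both libraries the precursors with at least 100 counts nearest to it in log2 CPM were mir-361 (898.4 CPM in AGO3, 572.7 CPM in AGO2), mir-4454 (760.9 and 517.3 CPM) and mir-152 (937.7 and 576.7 CPM).

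Second came mir-1227, in the pleckstrin-homology gene PLEKHJ1, with 824 counts in AGO3 and 945 counts in AGO2. Its levels of 269.7 CPM in AGO3 and 271.1 CPM in AGO2 were nearly equal. The next was mir-1228, in the endocytic receptor gene LRP1, with 160 counts (52.4 CPM) in AGO3 and 322 counts (92.4 CPM) in AGO2. Together mir-877 and mir-1227 thus held most mirtron counts in either library.

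A lower tier held mir-1229, mir-1226 and mir-1236, at 15.7 to 34.7 CPM in AGO3 and 28.7 to 49.4 CPM in AGO2. The host of mir-1229 is MGAT4B, which encodes a glycosyltransferase that branches N-glycans, and its counts were 55 in AGO3 and 172 in AGO2. For mir-1226, in the RNA helicase gene DHX30, the counts were 106 in AGO3 and 100 in AGO2. The third of this tier, mir-1236, lies within NELFE, a subunit gene of the negative elongation factor, and had 48 counts in AGO3 and 150 counts in AGO2. Their order differed between the libraries: mir-1226 led the 3 in AGO3 and was the lowest of them in AGO2.

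The remaining mirtrons were near the limit of this depth. The counts of mir-1224, in VWA5B2, were 62 in AGO3 and 13 in AGO2. For mir-1237, in the kinase gene RPS6KA4, they were 36 in AGO3 and 29 in AGO2. Only 6 counts in AGO3 and 2 counts in AGO2 fell on mir-1225, in PKD1, the gene of polycystin-1 that is mutated in polycystic kidney disease. Of these, mir-1224 alone differed between the libraries beyond counting error.

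**Figure D2:**
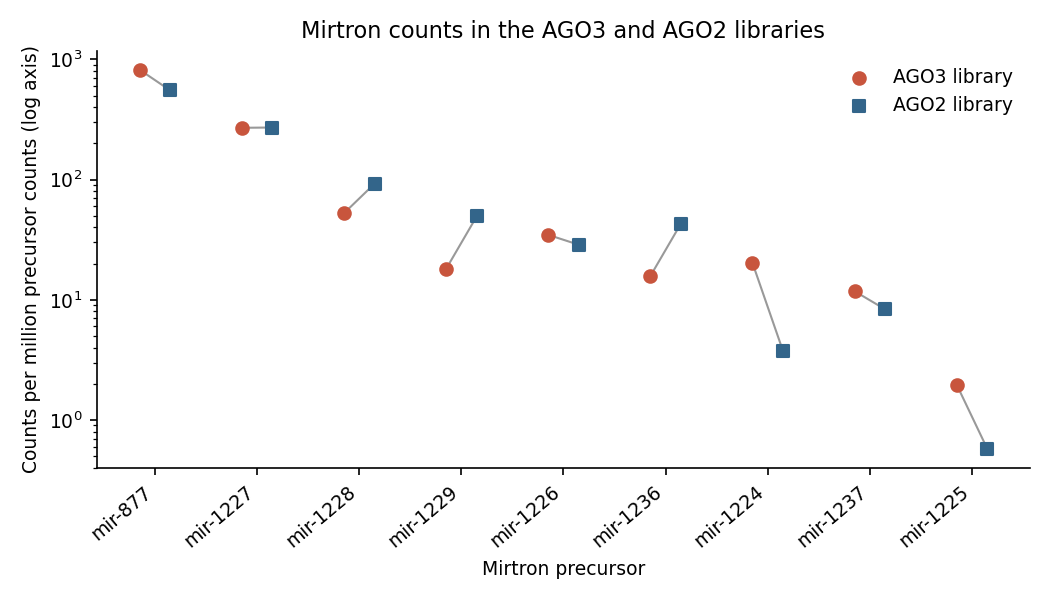
Levels in CPM of precursor counts on a log axis for the 9 listed mirtrons, ordered by their mean, with the AGO3 library as a circle on the left and the AGO2 library as a square on the right of each pair, 1 library each. The leading mirtron mir-877 stands at 820.5 CPM in AGO3 and 551.5 CPM in AGO2, and mir-1225 at 1.96 and 0.574 CPM.

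The second comparison asked which mirtrons were held unequally by AGO3 and AGO2. Ratios are log2 ratios of the shares of all precursor counts, AGO3 over AGO2, with a pseudocount of 0.5, and a precursor with at least 100 counts over both libraries was called apart at 2-fold. Of the 6 mirtrons past that minimum, 2 were at least 2-fold lower in AGO3 and 0 were at least 2-fold higher. Over all 411 precursors past it, 36 (8.76%) were at least 2-fold lower, 65 (15.8%) at least 2-fold higher and 24.6% apart in all. With 6 mirtrons, such a count is too small to set the group apart from other precursors.

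The lower pair was mir-1229 and mir-1236. The log2 ratio of mir-1229 was −1.45 (interval −1.92 to −1.01), or 2.73-fold lower in AGO3, and it was the 11th lowest of the 411. For mir-1236 the log2 ratio was −1.45 (−1.95 to −0.98), and it ranked next. With this scaling the interval of mir-1229 lay wholly beyond 2-fold, whereas that of mir-1236 reached just inside it. This contrast depended on the scaling. Both intervals lay wholly beyond 2-fold with median of ratios and with TMM factors. With all reads of the library as its size both reached inside 2-fold, to −0.68 for mir-1229 and −0.65 for mir-1236. The ratio of mir-1228 was −0.82 (−1.10 to −0.54), below 0 beyond counting error but less than 2-fold.

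On the other side, mir-877 was 1.49-fold higher in AGO3, at a log2 ratio of 0.57 (0.49 to 0.66). For mir-1226 the ratio was 0.27 (−0.13 to 0.68) and for mir-1227 it was −0.01 (−0.14 to 0.13), so that neither differed beyond counting error with this scaling. With all reads of the library as its size, both were higher in AGO3, mir-1226 at 0.60 (0.19 to 1.01) and mir-1227 at 0.32 (0.18 to 0.45), and with TMM factors mir-1227 was lower, at −0.17 (−0.30 to −0.03). The median over all 411 precursors moved as well, to 0.41 with all reads and −0.08 with TMM factors. Over the 6, the interval lay above 0 for 1, below 0 for 3 and over 0 for 2. Over all 411 precursors the interval lay above 0 for 186, below 0 for 162 and over 0 for 63. Most precursors thus differed beyond counting error, which leaves out the spread between replicate libraries.

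The highest ratio of any listed mirtron was that of mir-1224, 2.40 (1.57 to 3.43), or 5.27-fold higher in AGO3. With 75 counts over both libraries it stood below the minimum and was not among those called. For mir-1237 the ratio was 0.49 (−0.24 to 1.26) and for mir-1225 1.54 (−0.71 to 5.12), both within counting error.

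The summed ratio and the median ratio of the mirtrons past the minimum had opposite signs. The sum of the 9 mirtrons was higher in AGO3, at a log2 ratio of 0.25 (0.18 to 0.31), whereas the median of the 6 past the minimum was −0.41, against 0.08 over all 411 precursors. Without mir-877 the sum was 1297 counts in AGO3 and 1733 counts in AGO2, a log2 ratio of −0.23 (−0.33 to −0.12), so the sign of the sum rested on mir-877. With a minimum of 20 counts, which admits mir-1224 and mir-1237, the median was 0.13. It was 0.28 with a minimum of 1000 counts. With no minimum, so over the same 9 mirtrons as the sum, the median was 0.27 and shared its sign. Among these minimums, the median was negative only at the one used for calling, and the opposite signs rested on that choice.

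**Figure D3:**
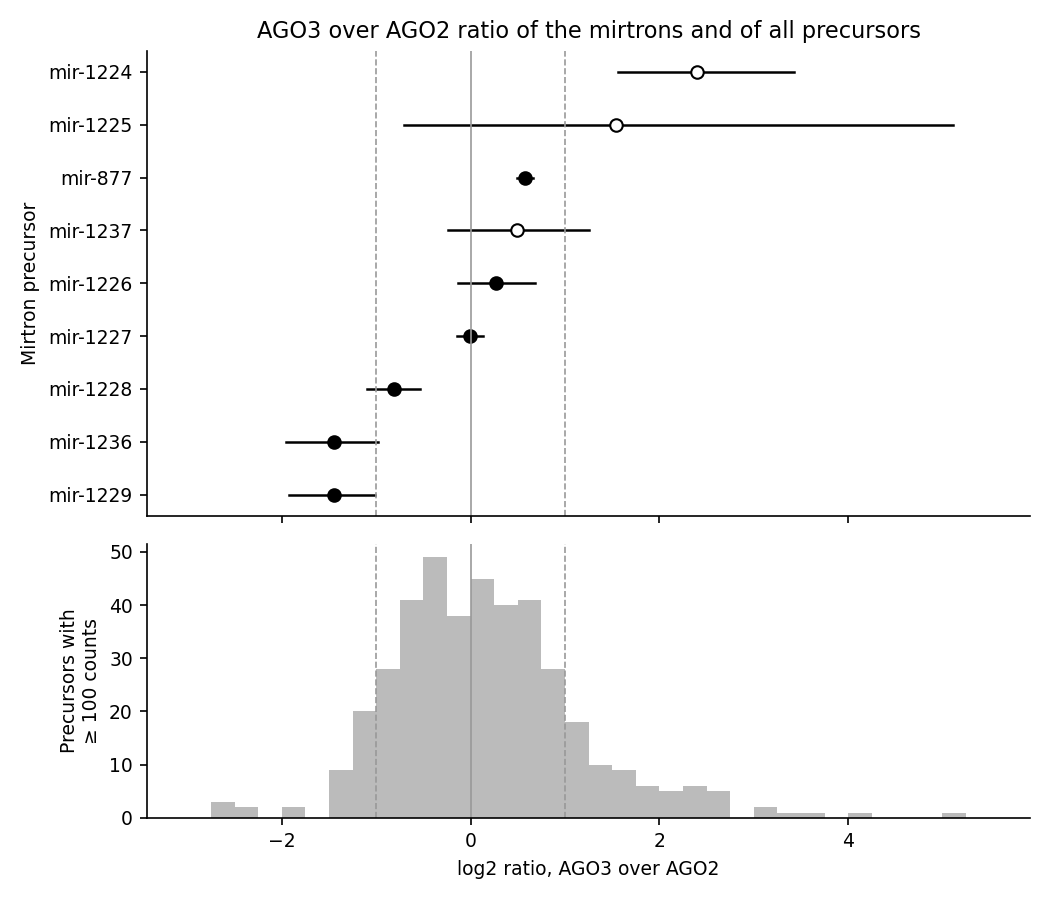
Upper part: log2 ratio of AGO3 over AGO2 for each listed mirtron (x axis) with its exact 95% counting interval, filled points with at least 100 counts over both libraries and open points below that; dashed lines mark 2-fold. Lower part: number of precursors (y axis) by the same ratio for all 411 with at least 100 counts, whose median is 0.08; mir-1229 and mir-1236 lie at −1.45 on its left side.

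A list built on hairpins thought to avoid Drosha by a route other than splicing gave a setting for these values. That list held mir-484 and mir-320a, whose 5′ end is thought to be set by the start of transcription. It also held the relatives of mir-320a, for which this was not checked here. Its 9 precursors held 2.52% of AGO3 and 1.83% of AGO2 counts, far more than the mirtrons. The 4 past the minimum had a median log2 ratio of 0.38, with mir-320a at 1.15 (1.13 to 1.18), mir-320b-1 at 0.60 (0.34 to 0.87), mir-320b-2 at 0.15 (−0.07 to 0.37) and mir-484 at −0.06 (−0.08 to −0.04). Both lists held members on either side of 0, and the difference between the lists was not tested. Copies of mir-320 may share reads. The other intron-end hairpins of the same naming series, mir-1233-1, mir-1233-2 and mir-1234, summed to 56 counts in AGO3 and 49 counts in AGO2, and none reached the minimum.

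The next question was where on each hairpin the reads lay, which the count tables do not show. A deposited list of stacks, stretches of overlapping reads in build hg19, pools libraries and does not separate AGO3 from AGO2; the sources used here do not name the libraries in it. Of its 502547 stacks, 13 named a mirtron on the sense strand, covering 8 of the 10 with 31372 reads, or 0.0593% (0.0586 to 0.0599) of the 52912652 reads in stacks that name a precursor. All 8 had a stack touching the 3′ splice site of the intron, and 5 of the 8 had one touching the 5′ splice site. Among all 1129 precursors with a stack, 18.8% had one touching a 3′ splice site and 2.92% one touching a 5′ splice site. Counted by stacks, 8 of the 13 touched a 3′ splice site and 5 a 5′ splice site, against 12.1% and 1.83% of all 1744 stacks naming a precursor. Mirtron hairpins begin and end at splice sites by definition, so a stack over the outer end of an arm must touch one. These shares therefore follow from the position of the hairpins and are no separate result about their reads.

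The deepest mirtron stack was that of mir-1226 at chr3:47891045-47891120, with 19043 reads. It was 76 bases long, beside a hairpin of 75 bases, and touched both splice sites of intron 20 or 21 of DHX30, depending on the transcript. The stack of mir-1229 at chr5:179225277-179225346 (minus strand) had 7154 reads, was 70 bases long beside a hairpin of 69, and touched both splice sites of intron 12 or 13 of MGAT4B. Reads therefore ran over both arms and the loop without a gap in these members, whose hairpins are printed above. Their stacks were also the deepest among the mirtrons, and whether the lack of a gap went with depth was not tested. Since each is 1 stack, the reads of its arms cannot be told apart.

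In the others the arms formed separate stacks or a single one. At mir-1224, in intron 18 of VWA5B2, 523 reads lay on the 3′ side at chr3:183959257-183959277 and 1177 on the 5′ side at chr3:183959193-183959217, so 30.8% (28.6 to 33.0) were on the 3′ side. From the start of the first to the end of the last stack was 85 bases, the length of the hairpin. At mir-1228, in intron 49 of LRP1, 485 reads lay on the 3′ side at chr12:57588334-57588359 and 413 on the 5′ side at chr12:57588286-57588313, so that 54.0% (50.7 to 57.3) were on the 3′ side. The arms of mir-1228 were therefore close to balanced, and mir-1224 leaned to its 5′ arm, the arm that begins at the 5′ splice site.

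The 3′ side dominated elsewhere. At mir-1225, in intron 45 of PKD1, 58 reads touched the 3′ splice site and 17 the 5′ splice site, a 3′ share of 77.3% (66.2 to 86.2), and a single further read lay between them. At mir-1227, in intron 4 of PLEKHJ1, all 2173 reads were in 1 stack of 24 bases at the 3′ splice site (chr19:2234059-2234082, minus strand), where miR-1227-3p lies. At mir-1238, in intron 8 of ATG4D, an autophagy protease gene, 30 reads were in 1 stack of 25 bases at the 3′ splice site (chr19:10662858-10662882). Neither mir-1227 nor mir-1238 had a stack touching the 5′ splice site.

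At mir-1237, in intron 11 of RPS6KA4, 274 reads lay at the 3′ splice site (chr11:64136155-64136175) and 24 further upstream (chr11:64136119-64136144), a share of 91.9% (88.3 to 94.8) at the splice site. The upstream stack lay 31 to 56 bases from the end of the last stack and touched neither splice site. In RefSeq, miR-1237-5p likewise ends 32 bases before the 3′ end of its hairpin; the builds differ, so only these distances were compared. All bases of that hairpin before base 50, printed above, precede both mature arms. Its form therefore differed from the other 9, in which the 5p miRNA starts at base 1 or 2.

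**Figure D4:**
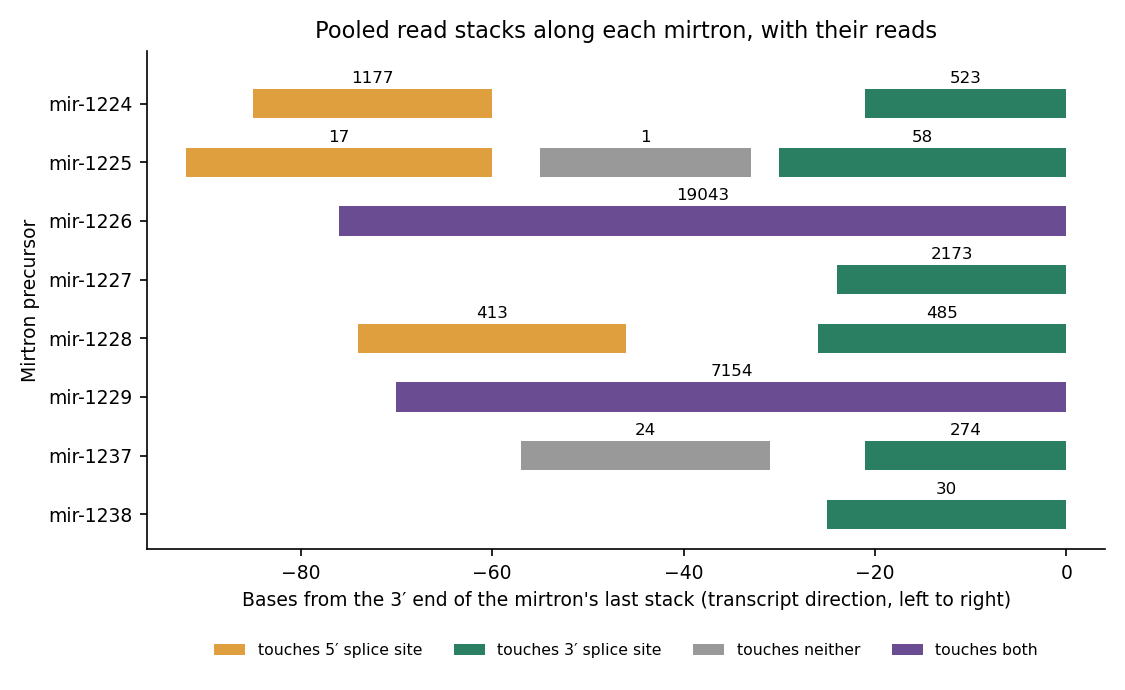
Pooled stacks along each of 8 mirtrons, drawn in the direction of transcription by distance in bases from the 3′ end of the last stack (x axis), coloured by the splice site they touch and labelled with their reads. Those of mir-1226 (19043 reads) and mir-1229 (7154 reads) are unbroken, those of mir-1224 and mir-1228 fall into both arms, and the upstream stack of mir-1237 (24 reads) reaches neither splice site.

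The stack list also gives the number of edits, differences of the reads from the reference. Over all stacks that name a precursor there were 0.162 edits per read. The arms of mir-1224 differed, with 2 edits over 523 reads on the 3′ side (0.00382 per read) and 167 over 1177 on the 5′ side (0.142 per read). At mir-1228 both sides were alike, with 0.134 edits per read on the 3′ side and 0.145 on the 5′ side. The stack of mir-1227 had 0.00276 edits per read, that of mir-1226 had 0.0165 and that of mir-1229 had 0.0721. All 13 mirtron stacks were below the pooled rate of 0.162, as were 1181 of the 1744 precursor stacks (67.7%), so this count does not set the mirtrons apart. The median stack had 0.0721 edits per read among the mirtrons and 0.139 among all precursor stacks. The score deposited with each stack, an entropy, was 0.00324 on the 3′ side of mir-1224 and 0.145 on its 5′ side, and highest, at 1.71, in the unbroken stack of mir-1226.

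The hosts were then searched for reads outside the hairpin, over stacks on their coding RefSeq transcripts. In DHX30, 99.3% (99.2 to 99.4) of the sense reads lay at mir-1226, against 134 reads in 57 stacks elsewhere in the gene. The share at the hairpin was 98.2% in MGAT4B, 98.1% in VWA5B2 and 94.3% in LRP1. It was 71.6% (69.9 to 73.2) in PLEKHJ1 and 70.3% (65.7 to 74.6) in RPS6KA4, and 50.8% (37.5 to 64.1) in ATG4D, from 30 reads at the hairpin and 29 elsewhere. Of the 863 reads elsewhere in PLEKHJ1, 723 lay in stacks that name another precursor, mir-6789. In these 7 genes a stack of the hairpin was the deepest of the gene.

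The exception was PKD1, where 3.14% (2.49 to 3.92) of the reads lay at mir-1225. Its deepest stack, with 1942 reads over 84 bases at chr16:2145805-2145888 (minus strand), named no precursor and touched no splice site. PKD1 has near-identical pseudogene copies on the same chromosome, so reads there are uncertain as its own.

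The last comparison set the stacks against the count tables. For mir-1226 there were 19043 stack reads and 206 counts over both tables, 92.4 reads per count, which ranked 5 among the 326 precursors with at least 100 counts and stacks of their own. The figure was 31.5 for mir-1229 (rank 38), 1.86 for mir-1228 (rank 258) and 1.23 for mir-1227 (rank 286), against a median of 6.32 over the 326. Below the minimum, mir-1224 had 22.7 stack reads per count, mir-1225 9.50 and mir-1237 4.58. The order of the mirtrons therefore depended on the file: mir-1227 had 8.59 times the counts of mir-1226 in the tables, and 0.114 times its reads in the stacks.

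For mir-877 and mir-1236 the files parted altogether. No stack named either, although the tables held 4429 and 198 counts of them, and no stack lay on a coding transcript of ABCF1 or NELFE. Of the 411 precursors with at least 100 counts, 81 were named in no stack. Both genes lie on chromosome 6, where hg19 carries alternative sequences of the major histocompatibility region. In the stretch from 29.0 to 33.5 Mb there the list held 31 stacks with 60 reads, and on the 6 alternative sequences of chromosome 6 it held 28 stacks with 1106 reads. Their part in the missing stacks was not tested.

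**Figure D5:**
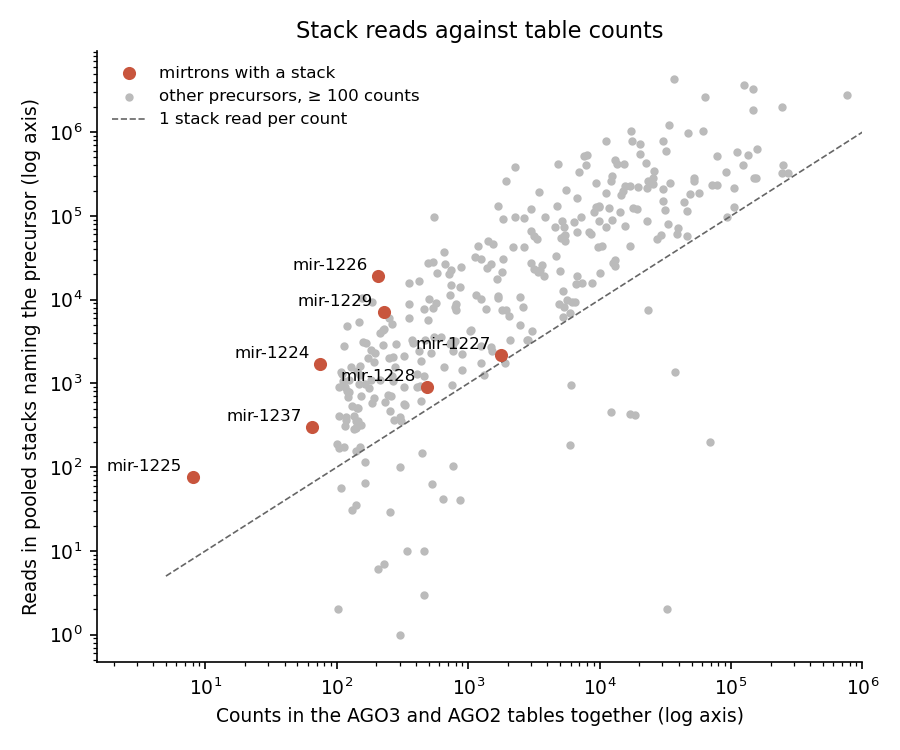
Reads in pooled stacks naming a precursor (y axis) against its counts in the AGO3 and AGO2 tables together (x axis), both on log axes, with red points for the 7 mirtrons that have both and grey points for other precursors with at least 100 counts; the dashed line marks 1 stack read per count. The points of mir-1227 and mir-1228 lie near the line and those of mir-1226 and mir-1229 far above it.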

How the data were processed

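Small RNA of 1 AGO3 and 1 AGO2 immunoprecipitate was counted on miRNA precursors by the authors, and the deposited values are raw counts per precursor. Per the file headers, 65.5% of 4667236 AGO3 reads and 52.2% of 6674064 AGO2 reads were counted. The submitters' processing notes name Bowtie2 2.1.0 and the build hg19 but give neither a role. The sources used here do not give the miRBase release or the handling of mismatches, strand and reads with several matches. The deposited stack list, per its fields, holds reads per stack as counts and an entropy score, with libraries pooled.

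Log2 ratios of AGO3 over AGO2 were computed with a pseudocount of 0.5 scaled to library size, and precursors with at least 100 counts could be called; the computation was tested on simulated data. With 1 library each there is no replicate check. All 10 mirtrons are named, and the members and lists were chosen with earlier results of these data known. Arms were read from the splice sites that a stack touches, since positions in hg19 were not converted to the build of the RefSeq sequences. Host genes came from the transcripts named in the stacks or, for mir-877 and mir-1236, from RefSeq genes that contain the hairpin. Scaling by TMM used edgeR 4.0.16 in R 4.3.3, folding used RNAfold 2.7.2, and all else ran in Python 3.11.15 with scipy 1.17.1 for intervals and matplotlib 3.10.9, pandas 2.3.3 and numpy 2.4.6. Alternatives covered scaling, pseudocount, count minimum, fold threshold and the choice of stacks.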

Additional observations from a re-analysis of the deposited data

Results flagged for a closer look

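Mirtron signal also appeared outside the count tables. The precursor mir-1238 was listed in neither table and had 30 pooled stack reads. The stacks hold a median of 6.32 reads per table count over the precursors compared, so these reads do not show that its absence from the tables is unusual. In PLEKHJ1, the host of mir-1227, the stacks also named mir-6789, which has 723 reads, 662 at chr19:2235814-2235862 and 61 at chr19:2235898-2235921 (minus strand). Both of its stacks touched a splice site. It was in neither table, and the highest number of any precursor in them was 5708.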

How the results depend on the processing

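Of 45 alternative ratios of single mirtrons, 40 stayed within the counting interval of the value above and 5 left it: mir-877 (0.41 with TMM, 0.90 with all reads in the header as library size), mir-1227 (−0.17 and 0.32) and mir-1228 (−0.49 with all reads). The sign of mir-1227 thus changed with the scaling, although it was never called. Relative to the scaling used, median of ratios shifted every ratio by −0.08, TMM by −0.16 and all reads by 0.33. The summed ratio of 0.25 was 0.16 with median of ratios, 0.087 with TMM and 0.57 with all reads, was −0.23 without mir-877, and was 0.22 over the members with at least 100 counts, an alternative chosen after seeing the data. The number of the 6 mirtrons whose interval lay above, below and over 0 was 1, 3 and 2 with median of ratios, as above, 1, 4 and 1 with TMM, and 3, 3 and 0 with all reads. Over all 411 precursors these numbers were 171, 177 and 63 with median of ratios and 160, 187 and 64 with TMM. They were 241, 101 and 69 with all reads. The median of −0.41 was −0.50 with median of ratios, −0.57 with TMM and −0.09 with all reads. It was 0.13 with a minimum of 20 counts, 0.28 with a minimum of 1000 counts and 0.27 with no minimum, as different members entered. The number at least 2-fold apart was 2 under each scaling, 3 with a minimum of 20 counts, 4 with no minimum, 3 at 1.5-fold and 0 at 3-fold. The share of all precursors apart was counted only at the main setting, where it was 24.6% of 411. The counts at other settings therefore have no such share beside them and say nothing particular to the mirtrons. The share of mirtron reads in precursor stacks was 0.0593% also with at least 10 reads per stack. No paired analysis was possible because each protein has 1 library.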

Other observations

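Stacks that touch both a 5′ and a 3′ splice site, as those of mir-1226 and mir-1229 do, were also found elsewhere. With at least 100 reads there were 13 in the list, mir-1226 and mir-1229 included, and 6 of them named a precursor. How many stacks of any kind reach 100 reads was not counted, so no share is given. Whether both sites belong to the same intron was not checked for these stacks. The stack that names mir-3648 and mir-3687, among these 6, had 4399 reads over 1059 bases, far longer than the others named here. The deepest after the mirtrons was that of mir-3620 in ARF1, a gene for a vesicle-transport GTPase, with 5386 reads over 80 bases at chr1:228284964-228285043. Those of mir-6807 in TRIM28 and mir-6821 in PIM3 had 953 reads over 93 bases and 192 reads over 79 bases. Among those that named no precursor were stacks in ISYNA1 (925 reads over 83 bases, chr19:18547057-18547139, minus strand), INF2 (340 reads over 75 bases, chr14:105169558-105169632) and USF2 (206 reads over 87 bases, chr19:35760324-35760410). Both Argonaute genes also had such a stack, with 175 reads over 96 bases in AGO3 and 113 reads over 162 bases in AGO2. These stacks were picked after their values were seen, and whether their RNA folds into a hairpin was not tested.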
